A study of Mus musculus with 4 samples.

Results

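The genes described here mark macrophages of the heart, namely *Adgre1*, *Csf1r*, *Cd68*, *Cd163*, *Mrc1*, *Lyve1*, *C1qa*, *C1qb*, *Ccr2* and *Timd4*. These 10 genes were taken by name as known markers of the cell type, by a rule that uses no measured value, and they are 10 of the 24454 genes counted. RNA-seq was performed on hearts of P7 mice, with 2 libraries of control hearts (Ctrl, WH7 and WH8) and 2 libraries of hearts overexpressing *miR-128* (miR-128OE, WH9 and WH10). Ctrl mice carried the *miR-128*TetRE allele, in which *miR-128* under a tetracycline operator had been knocked into the Rosa26 locus. The miR-128OE mice carried the same allele together with *α-MHC*-tTA, a transactivator driven by the cardiomyocyte promoter of α-myosin heavy chain, which directs the transgene to cardiomyocytes and not to macrophages. The mice had a C57BL/6 background. Doxycycline in the diet represses this Tet-off system, and the diet given to these P7 mice is not stated in the sources used here. The labels do not say whether the libraries came from separate animals, so p-values measure the spread between these samples, which may be technical.

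Cardiac macrophages are seeded before birth and live among cardiomyocytes, where they take up dying cells and cell debris. Long-lived resident macrophages commonly carry LYVE1, TIMD4, CD163 and the mannose receptor MRC1 and renew themselves locally. Cells recruited from blood monocytes carry CCR2, the receptor through which the chemokine CCL2 calls monocytes out of the bone marrow.

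None of the 9 macrophage genes that could be tested passed an adjusted p of 0.05 in edgeR's quasi-likelihood test of miR-128OE against Ctrl hearts, and the largest differences were those of *Ccr2* and *Cd163*. *Ccr2*, the recruited-cell gene, had 30.2 and 25.4 normalized counts in Ctrl and 10.9 and 15.1 in miR-128OE hearts. *Cd163*, a resident-cell gene, had 44.8 and 39.6 against 25.7 and 23.6. For *Csf1r*, *Adgre1*, *C1qa* and *C1qb*, which macrophages of both origins carry, the miR-128OE libraries lay between the Ctrl libraries.

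The sequence of *miR-128-3p* is shown because it is the molecule that was overexpressed. Its seed, bases 2 to 8, is in capitals. RefSeq places the same mature sequence at chr1:128202404-128202424 (+) in *Mir128-1* and at chr9:112118644-112118664 (−) in *Mir128-2* of GRCm38.p6.
miR-128-3p: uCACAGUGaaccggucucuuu
A match to the seed was searched on the transcript strand of each gene's longest 3′UTR among its coding transcripts. It was searched as CACTGTG or as ACTGTGA, which overlap where both occur. Of the 10 macrophage genes, 2 held a match (*Csf1r* and *Cd68*), and 4176 of 13464 tested genes (31%) did. The match of *Cd68*, with the seed complement in capitals, starts at base 16 of its 3′UTR and lies at chr11:69664349-69664355 (−).
Cd68 3′UTR site: ctgccccagtcCACTGTGtaagccaccaa
Neither *Cd68* nor *Csf1r* passed the test, as given below.

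The stretch of 250 bases before the start of the gene is shown for *Cd68* and *C1qb*, because both hold the core letters bound by PU.1, the product of *Spi1* and the factor that sets up the macrophage lineage. The letters GAGGAA were searched on both strands and are in capitals. The windows are from RefSeq (GRCm38.p6), lie at chr11:69666171-69666420 (−) and chr4:136886201-136886450 (−), and hold the letters 225 and 30 bases before the start.
Cd68 upstream: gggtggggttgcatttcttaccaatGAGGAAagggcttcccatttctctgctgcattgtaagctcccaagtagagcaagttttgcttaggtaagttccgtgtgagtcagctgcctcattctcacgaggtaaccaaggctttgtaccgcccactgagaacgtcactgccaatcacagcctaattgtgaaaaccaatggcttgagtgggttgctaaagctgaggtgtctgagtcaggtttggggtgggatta
C1qb upstream: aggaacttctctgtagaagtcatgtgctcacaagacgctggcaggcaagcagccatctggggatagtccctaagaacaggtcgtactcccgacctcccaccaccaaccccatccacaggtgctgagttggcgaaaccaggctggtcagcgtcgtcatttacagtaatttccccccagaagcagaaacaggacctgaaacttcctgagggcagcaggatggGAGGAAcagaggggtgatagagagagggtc
Windows were found for 6 of the 10 macrophage genes. Of these 6, 3 held the letters (*Cd68*, *C1qb* and *Mrc1*), beside 7639 of 32851 windows in all (23.3%). A match is a description of the letters and not a binding site. *Spi1* itself had 81.4 and 63.6 normalized counts in Ctrl and 56.4 and 44.6 in miR-128OE hearts, with a log2 fold change of −0.54 (SE 0.26, edgeR adjusted p = 0.137).

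The Ctrl libraries totalled 12385863 and 8096870 counts, the miR-128OE libraries 12440553 and 14359838 counts, and 3 counts, taken as the detection floor, correspond to 2.52 to 4.24 normalized counts. Floors and intervals of single counts cover counting error only. The cardiomyocyte gene *Myh6* had 118658 to 255234 counts and identified the tissue as heart. Counts on the *miR-128* precursor genes were 0 in all libraries for *Mir128-1*, and 0, 0, 2 and 10 for *Mir128-2* in WH7, WH8, WH9 and WH10, which is too few to check the transgene. Counts of *Xist* were 14543 and 11339 in WH7 and WH8 against 94 and 132 in WH9 and WH10, whereas those of the Y-linked *Ddx3y* were 13 and 7 against 1442 and 1768. *Eif2s3y*, *Kdm5d* and *Uty* followed *Ddx3y*, so that condition and sex cannot be told apart in any comparison here, and no value within 1 sex could be had. Across all genes, 2347 of 14266 were higher (16.5%) and 2143 lower (15%) in miR-128OE hearts by edgeR's quasi-likelihood test.

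The macrophage genes together took up 0.0135% and 0.00905% of all counts in Ctrl and 0.00916% and 0.00960% in miR-128OE hearts. These shares place WH7 above the other 3 libraries, which lay close together. Per length, the complement genes stood highest and the origin markers *Ccr2* and *Timd4* lowest. Mean levels over the 4 libraries, as RPKM, which scales counts to exonic length and library size, were 15.9 for *C1qa*, 15.9 for *C1qb*, 5.35 for *Cd68*, 4.65 for *Lyve1*, 3.78 for *Csf1r*, 2.71 for *Mrc1*, 1.42 for *Adgre1*, 0.520 for *Cd163*, 0.256 for *Ccr2* and 0.253 for *Timd4*. The steps from *C1qb* to *Cd68*, from *Mrc1* to *Adgre1* and from *Adgre1* to *Cd163* exceeded the range over libraries. The ranges of all other neighbours overlapped. Among those, *C1qa* was above *C1qb* in 1 library and *Ccr2* above *Timd4* in 2.

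**Figure D1:**
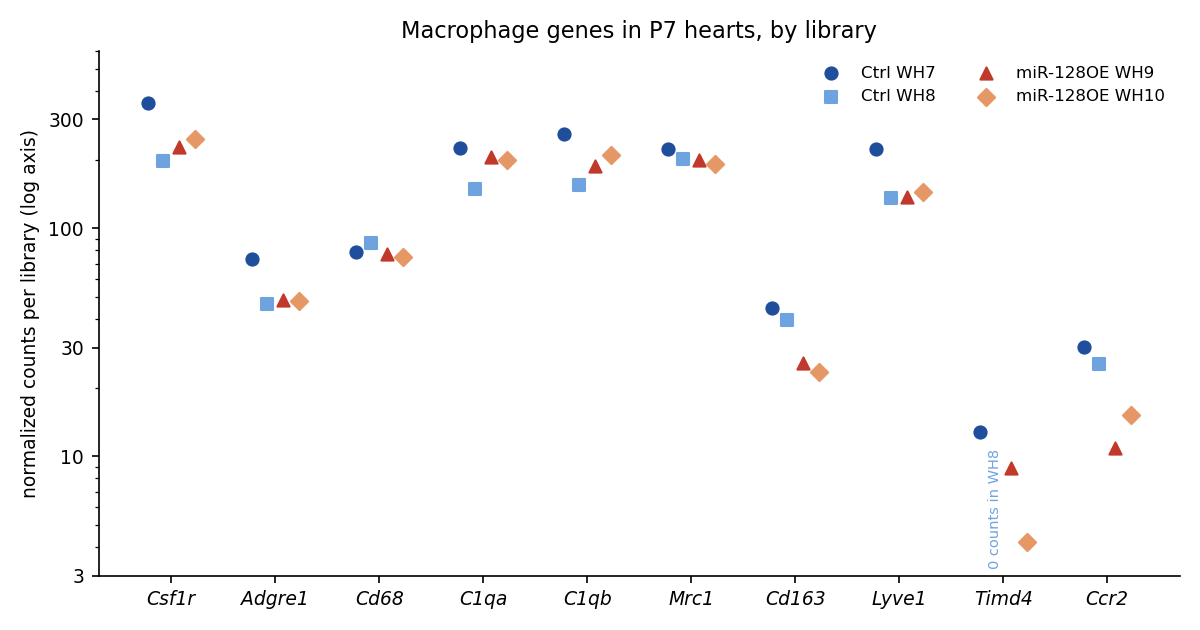
Normalized counts (TMM-scaled, log axis) of the 10 macrophage genes in each of the 4 libraries, with 1 point per library and no averaging. Among the 9 tested genes WH7 is the highest library for 8 (all but *Cd68*). For *Cd68*, *Mrc1*, *Cd163* and *Ccr2* both miR-128OE libraries lie below both Ctrl libraries, as for 34.4% of all genes. *Timd4* has 0 counts in WH8.

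The genes shared by all macrophages came first. *Csf1r* (chr18:61105572-61131139, +) encodes the receptor for CSF1 and IL34, on which macrophages depend for survival. It had 356 and 198 normalized counts in Ctrl and 228 and 247 in miR-128OE hearts. The miR-128OE libraries lay between the Ctrl libraries, and the log2 fold change was −0.25 (SE 0.22, 95% interval −0.75 to 0.25, edgeR adjusted p = 0.427). *Adgre1* (chr17:57358581-57483529, +) encodes F4/80, an adhesion receptor used to recognise mouse macrophages. Its normalized counts were 73.2 and 46.6 in Ctrl and 48.5 and 47.9 in miR-128OE hearts, so WH7 stood apart and WH8 lay close to the miR-128OE libraries. The log2 fold change was −0.34 (SE 0.28, 95% interval −0.98 to 0.29, edgeR adjusted p = 0.386). *Cd68* (chr11:69664213-69666170, −) encodes a glycoprotein of late endosomes and lysosomes and holds the seed match shown above. It had 78.6 and 86.2 normalized counts in Ctrl and 77.2 and 74.9 in miR-128OE hearts. Both miR-128OE libraries were below both Ctrl libraries, but by a small margin, and the log2 fold change was −0.11 (SE 0.21, 95% interval −0.58 to 0.36, edgeR adjusted p = 0.720).

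*C1qa* (chr4:136895916-136898844, −) and *C1qb* (chr4:136880126-136886200, −) encode chains of C1q, the molecule that opens the classical complement pathway and is made largely by tissue macrophages. *C1qa* had 224 and 148 normalized counts in Ctrl and 206 and 200.2 in miR-128OE hearts. It was the only tested macrophage gene with a positive log2 fold change (0.10, SE 0.19, 95% interval −0.32 to 0.52, edgeR adjusted p = 0.719), and it turned negative under 3 of 14 alternative settings given in the closing section. *C1qb* had 259.7 and 155 against 188 and 210.3 (log2 fold change −0.09, SE 0.21, 95% interval −0.56 to 0.39, edgeR adjusted p = 0.787). For both genes the miR-128OE libraries lay inside the range of the Ctrl libraries. The chains kept a similar proportion, with 0.863 and 0.955 *C1qa* counts per *C1qb* count in Ctrl and 1.09 and 0.952 in miR-128OE hearts. The third chain, *C1qc*, had 220 and 151 against 187 and 183 normalized counts (log2 fold change −0.03, SE 0.18, edgeR adjusted p = 0.922).

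Of the resident-cell genes, *Mrc1* (chr2:14229414-14332023, +), the mannose receptor, had 222 and 201 normalized counts in Ctrl and 199 and 192 in miR-128OE hearts. The log2 fold change was −0.12 (SE 0.13, 95% interval −0.42 to 0.18, edgeR adjusted p = 0.527), with the narrowest interval of the macrophage genes. *Lyve1* (chr7:110850607-110862953, −), a hyaluronan receptor that is also carried by lymphatic endothelium, had 222 and 136 normalized counts against 137 and 145. The high value of WH7 set this difference, and the log2 fold change was −0.37 (SE 0.22, 95% interval −0.86 to 0.11, edgeR adjusted p = 0.216). Genes of lymphatic endothelium, 7 with *Lyve1* included, summed to 1205 and 1056 normalized counts in Ctrl and 1044 and 1023 in miR-128OE hearts. Of 6 tested, 1 fell (16.7%, near the 15% of all genes). It was *Mmrn1* (log2 fold change −0.83, SE 0.26, edgeR adjusted p = 0.0361, DESeq2 adjusted p = 0.109). The part of lymphatic endothelium in the *Lyve1* values was not tested. *Cd163* (chr6:124304636-124330529, +), which takes up haptoglobin-bound haemoglobin, averaged 42.2 ± 3.70 normalized counts in Ctrl and 24.6 ± 1.55 in miR-128OE hearts (SD, n = 2). Both miR-128OE libraries were below both Ctrl libraries, with a log2 fold change of −0.78 (SE 0.30, 95% interval −1.46 to −0.11) and an edgeR adjusted p of 0.0761, which missed the threshold. *Timd4* (chr11:46810786-46844333, +), which binds phosphatidylserine on dying cells, was counted 14 times in WH7, 0 times in WH8, 9 times in WH9 and 5 times in WH10. It was too low to be tested, and the 0 in WH8 stands against a floor of 4.24 normalized counts.

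*Ccr2* (chr9:124101918-124109140, +) was the single recruited-cell gene among the 10. It averaged 27.8 ± 3.35 normalized counts in Ctrl and 13 ± 3 in miR-128OE hearts (SD, n = 2), from raw counts of 33, 18, 11 and 18 in WH7, WH8, WH9 and WH10. The groups did not overlap, and the log2 fold change was −1.09 (SE 0.38, 95% interval −1.95 to −0.23) with an edgeR adjusted p of 0.0561.

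**Figure D2:**
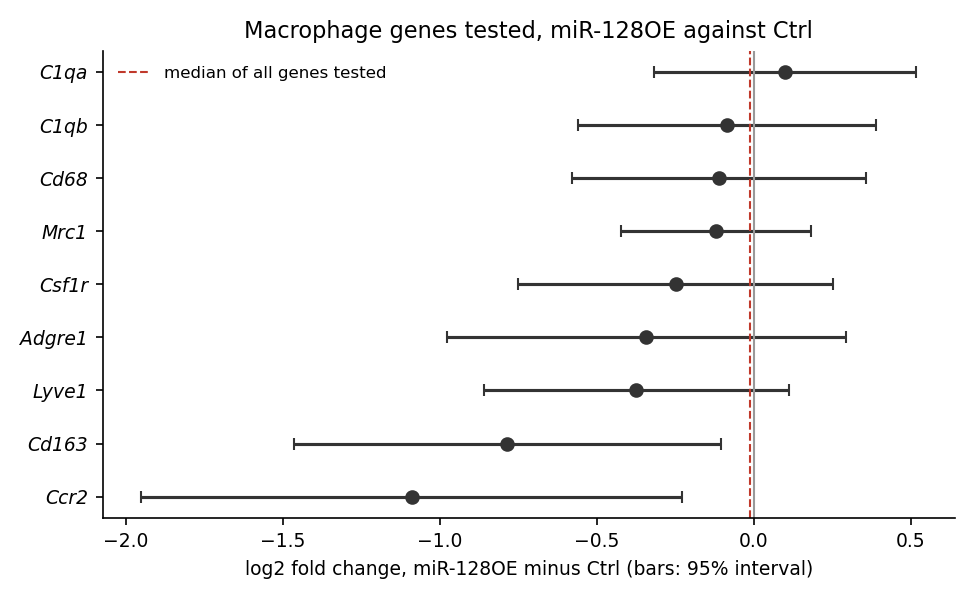
Log2 fold change of miR-128OE over Ctrl for the 9 macrophage genes that passed the filter, with bars for the 95% interval and a dashed line at the median of all 14266 genes (−0.01). The intervals of *Ccr2* (−1.95 to −0.23) and *Cd163* (−1.46 to −0.11) lie below 0 before adjustment, and those of the other 7 genes include 0.

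By edgeR's quasi-likelihood test, 0 of 9 macrophage genes passed the adjusted threshold in either direction. At an unadjusted p under 0.05, 2 were lower (*Ccr2* and *Cd163*), where 21.1% of all genes were. DESeq2 called 0 lower, with a background of 9.60%. The edgeR exact test and likelihood ratio test each called the same 2 genes lower, where they called 16.9% and 17.2% of all genes. *Ccr2* had an adjusted p of 0.0283 by the edgeR exact test, 0.0208 by the edgeR likelihood ratio test and 0.280 by DESeq2, and *Cd163* had adjusted p-values of 0.0498, 0.0396 and 0.333. Thus the call of these genes depended on the test. In 4 of 9 genes (*Cd68*, *Mrc1*, *Cd163* and *Ccr2*) both miR-128OE libraries were below both Ctrl libraries, where 34.4% of all genes were, and in 0 of 9 they were above, where 33.7% of all genes were. In 8 of 9 the log2 fold change was negative, against 51.4% of all genes, and the median was −0.25, against −0.01 for all genes. No decline of macrophages was established by these values. In bulk hearts, the number of macrophages, the RNA per macrophage and the share taken by other cells cannot be told apart.

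The Ctrl libraries differed from each other more than the miR-128OE libraries did. WH7 was above WH8 in 8 of 9 macrophage genes, with a median ratio of 1.51 (0.912 to 1.80), whereas the median over all genes was 0.987 and 46.6% were higher in WH7. The ratio of WH10 to WH9 had a median of 0.988 (0.915 to 1.39) over the same genes. The wider macrophage lists described below differed less between WH7 and WH8. Their summed normalized counts gave ratios of WH7 to WH8 of 1.12 for general, 1.09 for resident and 1.03 for recruited monocyte type genes. Fibroblast genes were also higher in WH7, with summed normalized counts of 83916 in WH7 and 54367 in WH8, a ratio of 1.54. The part of this fibroblast difference in the macrophage values was not tested. With WH7 left out the median log2 fold change of the macrophage genes was 0.05, and with WH8 left out it was −0.58. Without WH8, *Csf1r* (log2 fold change −0.58, edgeR adjusted p = 0.00502) and *Lyve1* (−0.66, edgeR adjusted p = 0.00835) passed. Without WH7, *Csf1r* was 0.27 (edgeR adjusted p = 0.221) and *Lyve1* 0.05 (edgeR adjusted p = 0.859).

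To set resident against recruited genes without scaling between libraries, each resident gene was divided by *Ccr2* within a library. The *Mrc1* to *Ccr2* ratio was 7.36 and 7.89 in Ctrl and 18.3 and 12.7 in miR-128OE hearts, a log2 difference of 1.00 (exact two-sided permutation test, p = 0.333). The *Lyve1* to *Ccr2* ratio was 7.36 and 5.33 against 12.5 and 9.56, a log2 difference of 0.80 (exact permutation p = 0.333). Both ratios were higher in both miR-128OE libraries than in either Ctrl library, where 33.7% of all genes were by normalized counts. They share the denominator *Ccr2*, which was itself lower in both miR-128OE libraries. The *Cd163* to *Ccr2* ratio was 1.48 and 1.56 against 2.36 and 1.56, a log2 difference of 0.34 (exact permutation p = 0.667), and WH10 had the same ratio as WH8. For *Timd4* the 0 in WH8 left no ratio. The 4 resident genes summed to 16.6 and 14.8 counts per *Ccr2* count in Ctrl and 34 and 24.1 in miR-128OE hearts. With 2 libraries a group there are 6 splits and the smallest p is 0.333, so this test could not pass, and each ratio rests on 11 to 33 *Ccr2* counts.

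When *Csf1r* took the place of *Ccr2* as the denominator, the resident genes showed log2 differences near 0 or negative. *Mrc1* over *Csf1r* differed by 0.05 on the log2 scale (exact permutation p = 1), *Lyve1* by −0.14 and *Cd163* by −0.61 (exact permutation p = 0.333 for each). *Ccr2* over *Csf1r* was 0.0848 and 0.129 in Ctrl and 0.0478 and 0.0612 in miR-128OE hearts, a difference of −0.95 (exact permutation p = 0.333). Among the macrophage genes divided by *Csf1r*, *Ccr2*, *Cd163* and *Lyve1* were lower in both miR-128OE libraries than in either Ctrl library, and *C1qa* and *C1qb* were higher. By normalized counts, 34.4% of all genes were lower in this way and 33.7% higher. These ratios share the denominator *Csf1r*, so they do not vary independently of each other.

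**Figure D3:**
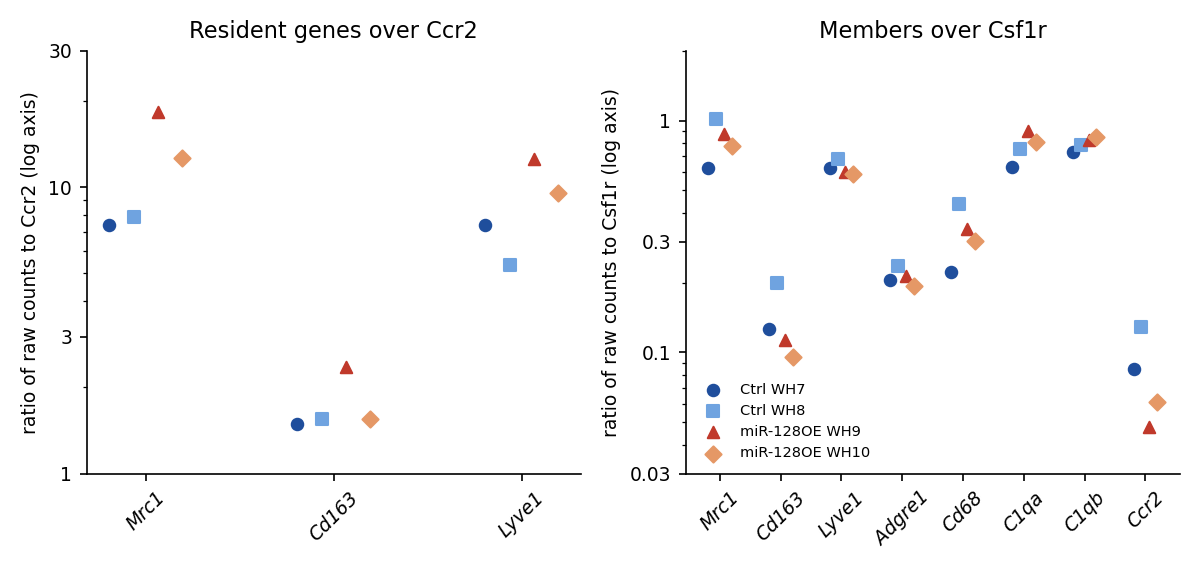
Ratios of raw counts within each library on log axes, with resident genes over *Ccr2* on the left and macrophage genes over *Csf1r* on the right, 1 point per library. *Mrc1* over *Ccr2* runs from 7.36 and 7.89 in Ctrl to 18.3 and 12.7 in miR-128OE hearts, whereas *Mrc1* over *Csf1r* overlaps between the groups.

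Other genes of macrophages were read from the same fit, against the background of 15% of all genes lower and 16.5% higher. Of 26 general macrophage genes, all tested, 5 fell (19.2%) and 1 rose (3.85%), with a median log2 fold change of −0.25 and 20 negative values (76.9%, against 51.4% of all genes). *Cx3cr1*, the fractalkine receptor of resident macrophages and patrolling monocytes, had 337 and 253 normalized counts in Ctrl and 142 and 139 in miR-128OE hearts. It fell by 1.09 on the log2 scale (SE 0.16, edgeR adjusted p = 0.00128) and stayed past the threshold in all 14 alternative settings. *Fcer1g*, the signalling chain of activating Fc receptors, had 189 and 120 against 69.3 and 81.6 (log2 fold change −1.06, SE 0.24, edgeR adjusted p = 0.00921), and *Laptm5*, a lysosomal protein of blood cells, fell by 0.54 (SE 0.13, edgeR adjusted p = 0.0125, DESeq2 adjusted p = 0.0695). Without WH7 *Fcer1g* had a log2 fold change of −0.66, and its call was lost without WH7 or without WH9. The other calls, named after their values were seen, were *Mertk*, a receptor for uptake of dying cells (−0.77, SE 0.20, edgeR adjusted p = 0.0161), the costimulatory *Cd86* (−1.43, SE 0.44, edgeR adjusted p = 0.035) and, upwards, the lipopolysaccharide co-receptor *Cd14* (0.93, SE 0.27, edgeR adjusted p = 0.0264). *Cd86* had 40 and 22 counts in WH7 and WH8 and 7 and 21 in WH9 and WH10. The miR-128OE libraries alone would not have brought it past the filter. Its call, 1 of the 5, is therefore not read as a difference. DESeq2 gave adjusted p-values of 0.0574, 0.121 and 0.132 for *Mertk*, *Cd86* and *Cd14*, and over the 26 genes it called 2 lower and 0 higher. *Cx3cr1* per *Csf1r* count was 0.949 and 1.28 in Ctrl and 0.622 and 0.561 in miR-128OE hearts (log2 difference −0.90, exact permutation p = 0.333).

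Of 20 genes of resident type, 16 were tested, 2 fell (12.5%, against 15% of all genes) and 0 rose by edgeR's quasi-likelihood test, with a median of −0.12. *Maf*, a transcription factor of self-renewing macrophages, had 262 and 213 normalized counts against 145 in each miR-128OE library (log2 fold change −0.73, SE 0.15, edgeR adjusted p = 0.00654). The call of *Maf* was lost without WH9 or without WH10. *Stab1*, a scavenger receptor that endothelium also carries, differed by −0.28 (SE 0.09, edgeR adjusted p = 0.0356, DESeq2 adjusted p = 0.109). Of 22 genes of recruited monocyte type, 19 were tested, 3 were called lower (15.8%) and 2 higher (10.5%), both near or below the background of 15% and 16.5%, and by DESeq2 0 were lower. The median was −0.35, and 17 values were negative (89.5%, against 51.4% of all genes). *Msrb1*, a methionine sulfoxide reductase found in many cells, rose by 1.22 (edgeR adjusted p = 0.000106), and *Ace*, also an endothelial enzyme, rose by 0.41 (edgeR adjusted p = 0.0362, DESeq2 adjusted p = 0.0511). *Treml4*, with 11 and 10 counts in WH7 and WH8 and 3 and 0 in WH9 and WH10, passed the filter only through the Ctrl libraries, so its call is not read as a difference. *Ly6c2*, the antigen of classical monocytes, and the chemokine *Ccl9*, both named after their values were seen, fell by 0.84 (SE 0.27, edgeR adjusted p = 0.0402) and 0.70 (SE 0.22, edgeR adjusted p = 0.039). Neither passed with DESeq2 (adjusted p = 0.134 and 0.184). *Ly6c2* was also lost with WH8, WH9 or WH10 left out (edgeR adjusted p = 0.0978, 0.0813 and 0.262), and *Ccl9* with any library left out (edgeR adjusted p from 0.0559 to 0.222).

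Of 20 ligands and chemoattractants, 13 were tested, 2 rose (15.4%) and 0 fell by edgeR's quasi-likelihood test. Across all genes, 16.5% rose and 15% fell. They were *Cxcl12*, which draws CXCR4-bearing cells (log2 fold change 0.70, SE 0.09, edgeR adjusted p = 0.000726), and *Mif* (0.52, SE 0.08, edgeR adjusted p = 0.00124). Of the ligands of *Csf1r*, *Csf1* had 521 and 465 normalized counts in Ctrl and 443 and 458 in miR-128OE hearts (−0.13, SE 0.10, edgeR adjusted p = 0.348), and *Il34* had 20.1 and 15.5 against 40.6 and 31.1 (0.97, SE 0.35, edgeR adjusted p = 0.0640). *Ccl2*, the ligand of *Ccr2*, had a log2 fold change of 0.21 (edgeR adjusted p = 0.627).

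Of 20 complement genes, 19 were tested, 3 fell (15.8%) and 2 rose (10.5%), near or below the shares over all genes. *C3*, the central component, had 1064 and 424 normalized counts in Ctrl and 274 and 230 in miR-128OE hearts (log2 fold change −1.59, SE 0.33, edgeR adjusted p = 0.00666), and its Ctrl libraries differed by more than 2-fold. The log2 fold change of *C3* was −0.76 without WH7 and −2.08 without WH8, and it missed the threshold with DESeq2 (adjusted p = 0.0695) and without WH9 or WH10 (edgeR adjusted p = 0.0524 and 0.0665). The proteases *C1s1* (−0.73, edgeR adjusted p = 0.00522) and *Masp1* (1.60, edgeR adjusted p = 0.00401) moved in opposite directions while *C1qa* and *C1qb* passed in neither. Of 20 genes for uptake of dying cells, which include *Timd4*, 17 were tested, 3 fell (17.6%) and 2 rose (11.8%). They included *Dock2*, a leukocyte activator of Rac (−0.95, edgeR adjusted p = 0.0153, DESeq2 adjusted p = 0.0745), *Mertk* as above, and the receptor *Axl* (0.37, edgeR adjusted p = 0.024).

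Of 18 myeloid transcription factors, all tested, 4 fell (22.2%) and 3 rose (16.7%), where 15% and 16.5% of all genes did. *Nr4a1*, an immediate-early gene of many cell types that patrolling monocytes require, rose by 2.77 (SE 0.09, edgeR adjusted p = 4.04e-07), and *Klf4*, active in endothelium as well as monocytes, rose by 0.87 (edgeR adjusted p = 0.000159). *Maf* fell as above. Of the 46 genes called across these lists and those of other cells, 11 passed under every alternative, among them *Cx3cr1*, *Cxcl12*, *Msrb1*, *Nr4a1*, *Klf4* and the mast cell genes below. Without WH9, 13 passed, and without WH10, 21 did.

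**Figure D4:**
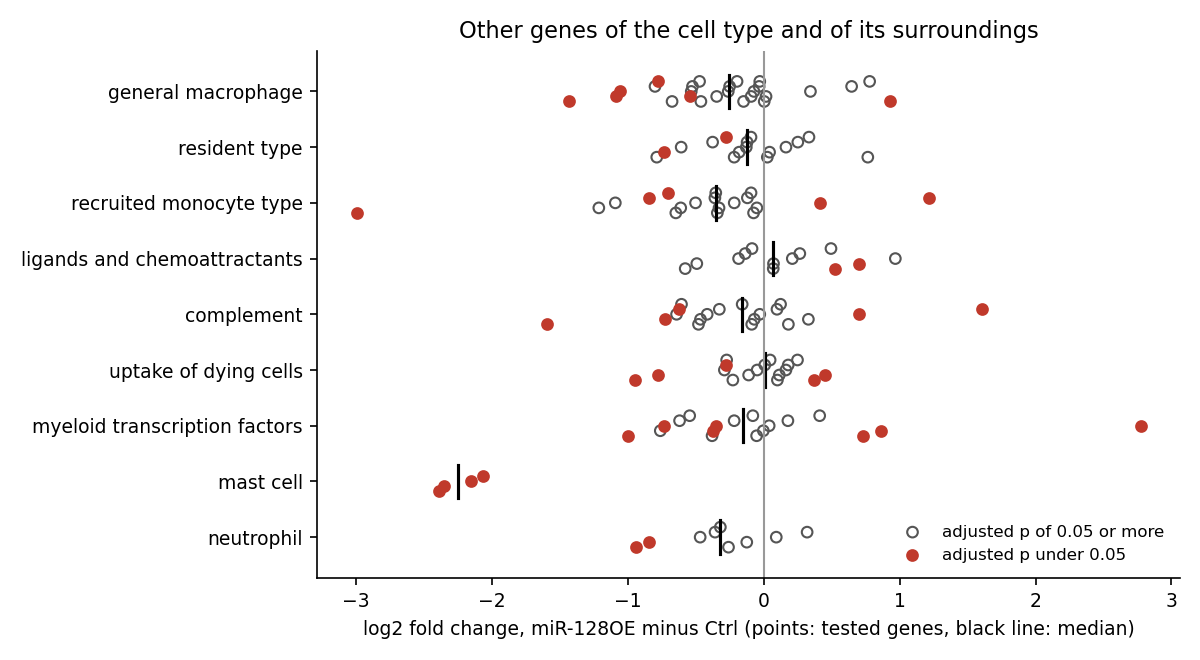
Log2 fold change of each tested gene in 9 lists, filled where the edgeR adjusted p is under 0.05, with a black line at each list's median. The 4 tested mast cell genes lie near −2.25, whereas the macrophage lists have medians from −0.35 to −0.12.

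Markers of other cells were read beside the shares over all genes, 15% lower and 16.5% higher. All 4 tested mast cell genes of 6 listed fell, among them the chymase *Cma1* with 131 and 114 normalized counts in Ctrl and 23.8 and 24.4 in miR-128OE hearts (log2 fold change −2.35, SE 0.24, edgeR adjusted p = 0.000208). The untested *Tpsab1* had 6 and 3 raw counts in Ctrl and 3 and 21 in miR-128OE hearts, and *Ms4a2* had 1 and 1 against 4 and 3. The mast cell list summed to 394 and 369 against 79.2 and 107, a ratio of 0.244, and *Fcer1g* is carried by mast cells as well as macrophages. Of 9 tested neutrophil genes of 11 listed, 2 fell (22.2%). They were *Cxcr2* (−0.84, edgeR adjusted p = 0.00404) and *Lcn2* (−0.94, edgeR adjusted p = 0.0306, DESeq2 adjusted p = 0.170). Cardiomyocyte genes summed to 516816 and 557744 normalized counts in Ctrl and 706716 and 690479 in miR-128OE hearts, a ratio of 1.30. Of the 8 cardiomyocyte genes, 3 rose (37.5%, *Actc1*, *Pln* and *Myh6*), and *Ryr2*, the calcium release channel, fell by 0.40 (SE 0.08, edgeR adjusted p = 0.00655). The part of these cell types in the macrophage results was not tested.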

How the data were processed

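RNA-seq of P7 mouse hearts was analysed. Per the study's methods, the authors filtered reads by quality, used TopHat2 with mm10, and deposited raw counts per gene. Gene models, strand and the rule for multiply aligned reads are not given in the sources used here, so overlapping genes and near-identical copies are uncertain. Of 24454 Entrez identifiers, 24374 were matched to a RefSeq symbol (GRCm38.p6).

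Counts were tested with edgeR 4.0.16 in R 4.3.3 (filterByExpr with a minimum count of 10, TMM, quasi-likelihood test, Benjamini-Hochberg over 14266 genes, threshold 0.05), after the study's negative binomial model. SE is the log2 fold change over the square root of F. Normalized counts are TMM-scaled. RPKM used exonic lengths of GENCODE M21. The test was checked on simulated data. Ratios of raw counts were compared by exact permutation over libraries.

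Genes set to be named were the 10 macrophage genes and the 3 smallest p-values of each list (lists of other cells also the most abundant). *Myh6*, the sex-linked genes and the *miR-128* precursors were set as well. Not all of these are described, so the genes named for other cell types are a selection. *Csf1*, *Ccl2*, *Spi1*, *C1qc*, *Tpsab1*, *Ms4a2*, the globin genes and the *Cd209* genes, outside this rule, were added after their values were seen. These genes and lists were chosen with earlier results of these data known. Alternatives were other edgeR tests, DESeq2 1.42.0, other scaling and filters, a fold of 1.5, a loess offset (span 0.5) for gene GC content and length, and each library left out. RNA-seq at P1 and P28 was not analysed here.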

Additional observations from a re-analysis of the deposited data

How the results depend on the processing

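Of the 9 tested macrophage genes, *Cd68* and *Mrc1* kept their direction and stayed short of the threshold in all 14 alternatives. *Ccr2* ranged from −1.34 to −0.88 and *Cd163* from −0.88 to −0.68 in log2 fold change. The number of macrophage genes called lower was 0 in the main test, 2 with the edgeR exact test, 2 with the likelihood ratio test, 1 with upper-quartile factors and 1 with total counts (*Ccr2* in both, edgeR adjusted p = 0.0487 and 0.0419), and 0 to 2 with 1 library left out. Leaving out 1 library, log2 fold changes ranged from −0.58 to 0.27 for *Csf1r*, −0.60 to 0.048 for *Adgre1*, −0.14 to 0.45 for *C1qa*, −0.38 to 0.36 for *C1qb*, −0.66 to 0.054 for *Lyve1* and −0.25 to 0.29 for *C1qc*, and turned direction without WH7 for all of these but *C1qa*, which turned without WH8, with total counts (−0.0017) and with the offset for GC content and length (−0.071). *C1qb* also turned without WH9 (0.0038) and *C1qc* without WH10 (0.0043). Over *Csf1r* in place of *Ccr2*, *Cd163* (−0.61) and *Lyve1* (−0.14) turned. Leaving out 1 library, the log2 difference of the ratio to *Ccr2* ranged from 0.73 to 1.26 for *Mrc1*, 0.57 to 1.04 for *Lyve1* and 0.034 to 0.64 for *Cd163*. Across all genes, a 1.5-fold minimum left 935 higher and 1187 lower, DESeq2 gave 1320 lower, total counts gave 1611 higher and 2948 lower against 2347 and 2143 and moved the median of all genes to −0.11, and leaving out 1 library gave 806 to 2613 higher and 616 to 2380 lower. Of the 46 genes called in the wider lists, 26 kept their call with DESeq2 (of 45 with an adjusted p), 38 without WH7, 37 without WH8, 13 without WH9 and 21 without WH10. The lists together had 19 genes higher and 27 lower in the main test, 12 higher with a 1.5-fold minimum, 12 lower with DESeq2, and 7 to 29 higher and 6 to 31 lower with 1 library left out. A group left with 1 library was assumed to vary like the other. The cause of these shifts was not tested. At 11 to 33 counts, *Ccr2* has little precision. No paired analysis was possible because the labels give no replicate numbers that the groups share.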

Other observations

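Lymphocyte genes were sparse in these hearts. Of 8 T cell genes 4 were tested, with a median log2 fold change of −0.48 and 0 calls by edgeR's quasi-likelihood test. *Cd4* had 21 and 19.8 normalized counts in Ctrl and 17.8 and 15.1 in miR-128OE hearts. Of 7 B cell genes 5 were tested, with a median of 0.31 and 0 calls, and none of 6 NK cell genes had enough counts for the test. Of 6 dendritic cell genes 3 were tested. *Clec9a*, a receptor of cross-presenting dendritic cells for dead cells, had 84.1 and 83.4 normalized counts in Ctrl and 51.5 and 58.0 in miR-128OE hearts (log2 fold change −0.61, SE 0.22, edgeR adjusted p = 0.0644).

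Erythroid *Alas2*, the first enzyme of haem synthesis in red cell precursors, had 445 and 304 normalized counts in Ctrl and 823 and 756 in miR-128OE hearts, and rose by 1.05 on the log2 scale (SE 0.15, edgeR adjusted p = 0.00106). The globin genes *Hba-a1*, *Hba-a2*, *Hbb-bs* and *Hbb-bt*, which have near-identical copies, are listed at 0 in all 4 libraries, as are *Cd209b*, *Cd209f* and *Cd209g* of the resident list. Of 8 blood endothelial genes, *Pecam1* (0.42, edgeR adjusted p = 0.00519) and *Cdh5* (0.27, edgeR adjusted p = 0.0464) rose (25%, against 16.5% of all genes). *Egfl7* (−0.36, edgeR adjusted p = 0.0117) and *Emcn* (−0.29, edgeR adjusted p = 0.0383) fell (25%, against 15%). Of 8 fibroblast genes, 1 rose (12.5%, *Lum*, 0.63, edgeR adjusted p = 0.0286). The calls of *Emcn* and *Lum* were lost with DESeq2, and that of *Cdh5* with the edgeR exact and likelihood ratio tests. A 1.5-fold minimum removed the endothelial calls.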
